A study of Homo sapiens with 4 samples.

Results

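The transcripts of 10 genes for acidic chromatin proteins were examined for crosslinking of poly(PR), out of 62700 annotated genes, of which 20033 were protein-coding genes on chromosomes 1 to 22, X and Y. The genes were chosen by name, with earlier results of these data known: SET, the nucleosome assembly proteins NAP1L1 and NAP1L4, the ANP32 proteins ANP32A, ANP32B and ANP32E, the high-mobility-group protein HMGB1, prothymosin alpha (PTMA), and SUPT16H and SSRP1, which together form the FACT complex. Poly(PR) is a repeat of proline and arginine that is translated from the expanded repeat of C9orf72 in amyotrophic lateral sclerosis and frontotemporal dementia. In the 4 libraries, HEK293T cells, a transformed line of human embryonic kidney cells, were transiently transfected with PR100-FLAG, a stretch of poly(PR) with a triple FLAG tag. Expression was induced with 150 ng/ml doxycycline for 24 h, and UV light of 254 nm at 160 mJ/cm2 joined proteins to the RNA they touched. The purification was by SDS-PAGE in replicates 1 to 3 and on beads in replicate 4. All libraries belong to 1 condition with an overexpressed peptide, and neither control nor GA100 libraries were used here, so no background of the method was subtracted. The labels do not say whether the libraries came from separate cultures, and p-values measure only the spread between them.

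Histones are strongly basic proteins, and their chaperones hold them through stretches of aspartate and glutamate, often at the C-terminus. Such a stretch is written in the messenger RNA as a run of GAA, GAG, GAT and GAC codons, so an acidic tail in the protein is a purine-rich tract in the transcript. Chaperones of this kind deposit and remove histones during replication and transcription, and HMGB1 bends DNA with a pair of HMG boxes in front of its acidic tail.

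The acidic tract of a protein was taken as its highest-scoring stretch, with 1 point for each aspartate or glutamate and 1 point off for any other residue, and a score of at least 10 was required. By this rule, 489 of 19781 coding genes had a tract, and 9 of the 10 genes were among them. The tract was the C-terminal tail itself in HMGB1 (residues 186 to 215) and SET (226 to 277). It ended a short way before the C-terminus in ANP32A (168 to 232), ANP32B (166 to 233), ANP32E (159 to 247), NAP1L1 (348 to 372) and NAP1L4 (341 to 368), and lay in the middle of PTMA (53 to 81). In SUPT16H the rule found a short internal stretch (435 to 449), not its C-terminal acidic region, and SSRP1 stayed under the minimum with a score of 5. A wider definition, the union of all windows of 25 residues that are at least 50% acidic, covered the acidic regions of FACT too and is given beside the tract where the results differ.

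The coding sequences of the tracts of 5 genes are printed to show what the RNA of an acidic tail looks like. They were read from the GRCh38 genome in the direction of the transcript, with introns removed, and capitals mark each match on the RNA strand, overlapping ones included, of 3 motifs. The first motif is GAAGA, the next motif searched was GAGGA, and the last of the motifs was GACGA. They are named GANGA in what follows. The ANP32B tract lies on the plus strand in 4 exons, and its longest piece is chr9:98011271-98011389. The SET tract lies on the plus strand at chr9:128693908-128694042 and chr9:128694641-128694661. The PTMA tract lies on the plus strand at chr2:231711929-231711983 and chr2:231712443-231712474. The HMGB1 tract is on the minus strand in a single exon, chr13:30461360-30461449. The NAP1L1 tract is on the minus strand in 3 exons, the first of which holds chr12:76050531-76050548.
ANP32B: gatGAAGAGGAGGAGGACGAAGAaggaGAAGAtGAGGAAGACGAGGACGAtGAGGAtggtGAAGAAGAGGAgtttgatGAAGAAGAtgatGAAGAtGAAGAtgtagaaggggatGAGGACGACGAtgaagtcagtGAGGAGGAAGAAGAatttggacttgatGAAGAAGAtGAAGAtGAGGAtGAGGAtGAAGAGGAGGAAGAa
SET: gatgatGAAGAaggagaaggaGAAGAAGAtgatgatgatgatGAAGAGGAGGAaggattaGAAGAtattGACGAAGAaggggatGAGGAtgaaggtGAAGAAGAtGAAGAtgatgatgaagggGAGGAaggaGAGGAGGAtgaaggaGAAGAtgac
PTMA: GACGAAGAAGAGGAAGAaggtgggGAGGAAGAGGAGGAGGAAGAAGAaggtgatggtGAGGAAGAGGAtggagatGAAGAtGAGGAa
HMGB1: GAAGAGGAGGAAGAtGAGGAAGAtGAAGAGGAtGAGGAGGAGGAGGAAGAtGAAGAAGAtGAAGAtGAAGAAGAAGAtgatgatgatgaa
NAP1L1: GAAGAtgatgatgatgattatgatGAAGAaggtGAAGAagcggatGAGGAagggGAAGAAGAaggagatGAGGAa

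The 9 tracts held 401 codons, of which 216 were for glutamate and 103 for aspartate. GAA made up 57.4% of the glutamate codons and GAT 83.5% of the aspartate codons, against 43.2% and 47.1% over all canonical coding sequences. The 3 motifs began 182 times in the tracts, 15.1 times per 100 nt, against 1.49 times per 100 nt in the rest of the same coding sequences and 0.703 in all coding sequence. The density was higher in the tract than outside it in 9 of 9 genes, from 9.33 per 100 nt in NAP1L1 to 21.1 in HMGB1. Dense motifs were not particular to these genes, since the tracts of all 489 genes had a median of 20 per 100 nt. Of coding windows as long as the ANP32B tract (204 nt), 65.8% held at least 1 of the motifs, and of windows as long as the NAP1L1 tract (75 nt), 34.1% did.

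In iiCLIP, a cDNA ends where the peptide was bound to the RNA, and each unique cDNA gives 1 crosslinking event, placed on the nucleotide next to that end. The libraries held 334057, 604816, 125694 and 179636 events in replicates 1 to 4. Replicate 3 stood apart, with 5 random bases in its barcode in place of 7 and 125694 events on 58219 positions. In the coding sequence of the 10 genes its 51 events lay on 10 positions, 5.1 events per position, against 1.3 to 1.84 in the other libraries. The main values are given with and without it. The 6 genes chosen as expressed in HEK293T cells held 1 to 1426 events, with KRT8 and KRT18 at 6 and 1, and the 10 markers of other cell types held at most 10.

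The 10 genes held 79 to 341 events each in the sum of the libraries. The methods of the study set a minimum of 200 events for a bound gene, together with a limit on binding in the controls that was not applied here. At least 200 events were found in 4 of 10, against 3.49% of all protein-coding genes. These were PTMA with 341, NAP1L1 with 329, ANP32B with 225 and SUPT16H with 224. SET held 183, NAP1L4 172, ANP32A 170, SSRP1 153 and ANP32E 134, so that 9 of 10 reached 100 events, against 12% of coding genes. HMGB1 was the lowest with 79. Since the genes were chosen with earlier results known, the shares of all genes are given as a background and not as a test. The count of 4 fell to 2 without replicate 1, to 1 without replicate 2, the deepest library, to 3 without replicate 3 and to 2 without replicate 4.

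To compare genes of different length, events in the exons of the canonical transcript were expressed as CPM per kb, where CPM scales the counts to the total events of the library. The number of events on a gene depends both on how much of its RNA was present and on how often that RNA was bound, and these cannot be told apart here. PTMA, a small acidic nuclear protein, was highest of the 10 at 126, 155, 13.1 and 522 CPM per kb in replicates 1 to 4, a mean of 204 ± 221 (SD, n = 4) and rank 11 of 19781 coding transcripts. Replicate 4 was far above the other libraries and replicate 3 far below them. ANP32B, a histone chaperone of the leucine-rich-repeat family, followed at 44.4, 98.1, 32.2 and 165 CPM per kb (mean 85 ± 60.6, SD, n = 4, rank 36). SET, a histone chaperone and an inhibitor of protein phosphatase PP2A, held 26.6, 39.0, 32.6 and 116 CPM per kb (mean 53.5 ± 41.9, SD, n = 4, rank 104).

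The FACT subunits SSRP1 and SUPT16H, which help RNA polymerase through nucleosomes, lay close to each other at 42.6 ± 25.2 and 41.2 ± 23.3 CPM per kb (SD, n = 4). Then came ANP32E, which removes the variant histone H2A.Z, at 28.1 ± 24.1, ANP32A at 24.1 ± 12.4, NAP1L4 at 22.2 ± 18.6 and NAP1L1 at 16.8 ± 13.4 CPM per kb (SD, n = 4). The canonical NAP1L1 transcript used for the length is 13159 nt long, so its low density stands beside the second highest number of events. HMGB1 held 5.49, 1.82, 0 and 4.08 CPM per kb, a mean of 2.85 ± 2.43 (SD, n = 4) at rank 6417. Of the neighbours in this order, only ANP32B above SET and NAP1L1 above HMGB1 differed by more than 1 SD of the difference between them over the libraries. The difference was 31.4 ± 27.6 for the first pair, above in 3 of 4 libraries, and 13.99 ± 13.1 CPM per kb for the second, above in 4 of 4. The other 7 neighbouring pairs did not differ beyond their spread.

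The median over the 10 genes was 18.2, 31.7, 13.1 and 65.8 CPM per kb in replicates 1 to 4, or 32.2 ± 23.7 (SD, n = 4), against a per-library median of 0.486 ± 0.563 over all coding transcripts. It was 38.6 without replicate 3 and 20.99 without replicate 4, a fall by more than 1.5 times. Replicate 4, purified on beads, gave the highest density for 9 of 10, and HMGB1 was the exception. Over the 1636 coding genes with at least 50 exonic events, 68.2% were also highest in replicate 4. Replicate 3 gave the lowest density for 6 of 10, against 52.1% of those genes. The part of the purification in these values was not tested, since only 1 library was made with beads.

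**Figure D1:**
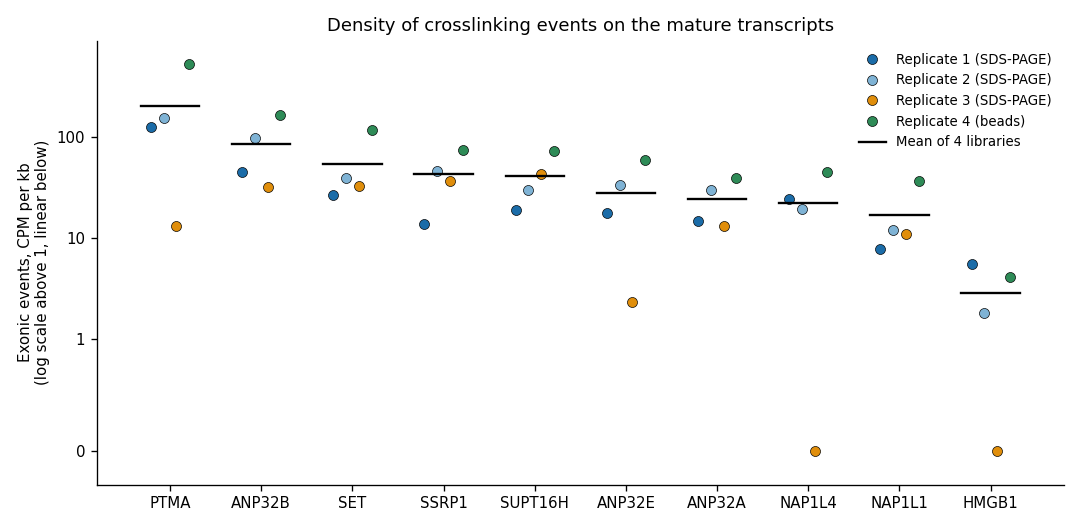
Exonic crosslinking events in CPM per kb of the canonical transcript for each of the 10 genes (log scale above 1, linear below), with 1 point per library and a line at the mean of the 4 libraries. The beads library (replicate 4) is the highest point for 9 genes, and PTMA spans 13.1 to 522 CPM per kb.

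Coding sequence held more of the events than any other region in replicates 2 to 4, and introns held slightly more in replicate 1. The coding share of the events in the 10 genes was 37.6%, 60.0%, 45.7% and 76.4% in replicates 1 to 4 (54.9% ± 17.1, SD, n = 4). It was above the share over all protein-coding genes (28.8% ± 9.72) in 4 of 4 libraries. Introns held 25.1% ± 12.1 against 54.3% ± 11.8 over all genes (SD, n = 4). Without replicate 3 the coding share was 58.0%. An event in several annotated regions was given to coding sequence first, and with UTRs first the coding share was 29.0%. The 28.8% over all genes is for coding sequence first, so the 29.0% cannot be set against it.

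The genes were not alike in this. SUPT16H, SSRP1 and ANP32E had 74.6%, 74.5% and 70.9% of their events in coding sequence. HMGB1 had 65.8% of its events in introns, NAP1L4 54.1% and ANP32A 45.3%. Both HMGB1 and NAP1L4 thus had few coding events, 11 and 49 in all, which limits what can be said of their tracts.

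The question raised by the acidic tails was whether events inside the coding sequence fell on the tract more often than its length would give. In ANP32B the tract took 109 of 139 coding events (78.4%, exact 95% interval 70.6% to 84.9%) on 27.1% of the coding length. By library, it held 16 of 21 events in replicate 1, 66 of 79 in replicate 2 and 27 of 39 in replicate 4, and replicate 3 had no coding event in this gene. The events were spread over 53 positions of the tract, and no position held more than 9.

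The other ANP32 genes also had most of their coding events in the tract. The ANP32E tract held 66 of 92 coding events (71.7%, 61.4% to 80.6%) on 33.2% of the length, with 5 of 7, 38 of 52 and 23 of 33 in replicates 1, 2 and 4 and no coding event in replicate 3. The ANP32A tract held 46 of 65 (70.8%, 58.2% to 81.4%) on 26.1% of the length. Its libraries differed, with 1 of 6, 30 of 40, 0 of 4 and 15 of 15 events in replicates 1 to 4. The 4 events of replicate 3 lay before the tract, inside the wider acidic windows.

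In SET, 64 of 118 coding events (54.2%, 44.8% to 63.4%) lay in the C-terminal tail, which is 18.8% of the coding length. The counts were 5 of 12, 26 of 45, 0 of 6 and 33 of 55 in replicates 1 to 4, so the share was above that of the length in each library other than replicate 3. The 6 events of replicate 3 lay near the start of the coding sequence. HMGB1 had 6 of its 11 coding events in the tail (exact interval 23.4% to 83.3%) on 13.95% of the length. All of these intervals cover counting error only.

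PTMA had 74 of 227 coding events in its tract (32.6%, 26.5% to 39.1%) on 26.4% of the length, with 15 of 35, 34 of 95, 0 of 2 and 25 of 95 by library. The 90 nt before the tract were just as dense, with 85.6 events per 100 nt against 85.1 inside it, and the 87 nt after it held 62.1. In the wider windows, which take up 60% of this short coding sequence, lay 203 of the 227 events (89.4%). NAP1L1 had 21 of 188 events in its tract (11.2%, 7.05% to 16.6%) on 6.39% of the length, and NAP1L4 6 of 49 (12.2%, 4.63% to 24.8%) on 7.47%. In NAP1L4, 5 of these 6 came from replicate 4.

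In NAP1L1 most coding events lay outside the tract but inside the wider windows, which form 3 segments. The middle one, residues 124 to 164, held 80 of the 188 coding events (42.6%) on 10.5% of the length, 4.06 times its share. The counts there were 5, 30, 12 and 33 in replicates 1 to 4, so the segment had events in 4 of 4 libraries. The 12 of replicate 3 all lay in codon 142, in the library whose events were stacked on few positions. The N-terminal segment (residues 1 to 35) held 24 events and the C-terminal segment (338 to 387) held 30, at 1.43 and 1.25 times their share.

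The FACT genes had many coding events, and most lay outside their acidic regions, which are a small part of the length. SUPT16H had 1 of 156 coding events in its short tract (0.641%, 0.0162% to 3.52%) on 1.43% of the length. Its 3 wider segments together held 14 events (8.97%) on 10.9%. The segment of SSRP1, residues 469 to 497, held 8 of 114 events (7.02%, 3.08% to 13.4%) on 4.09%. This was 1.72 times its share of the length, and the interval includes that share.

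**Figure D2:**
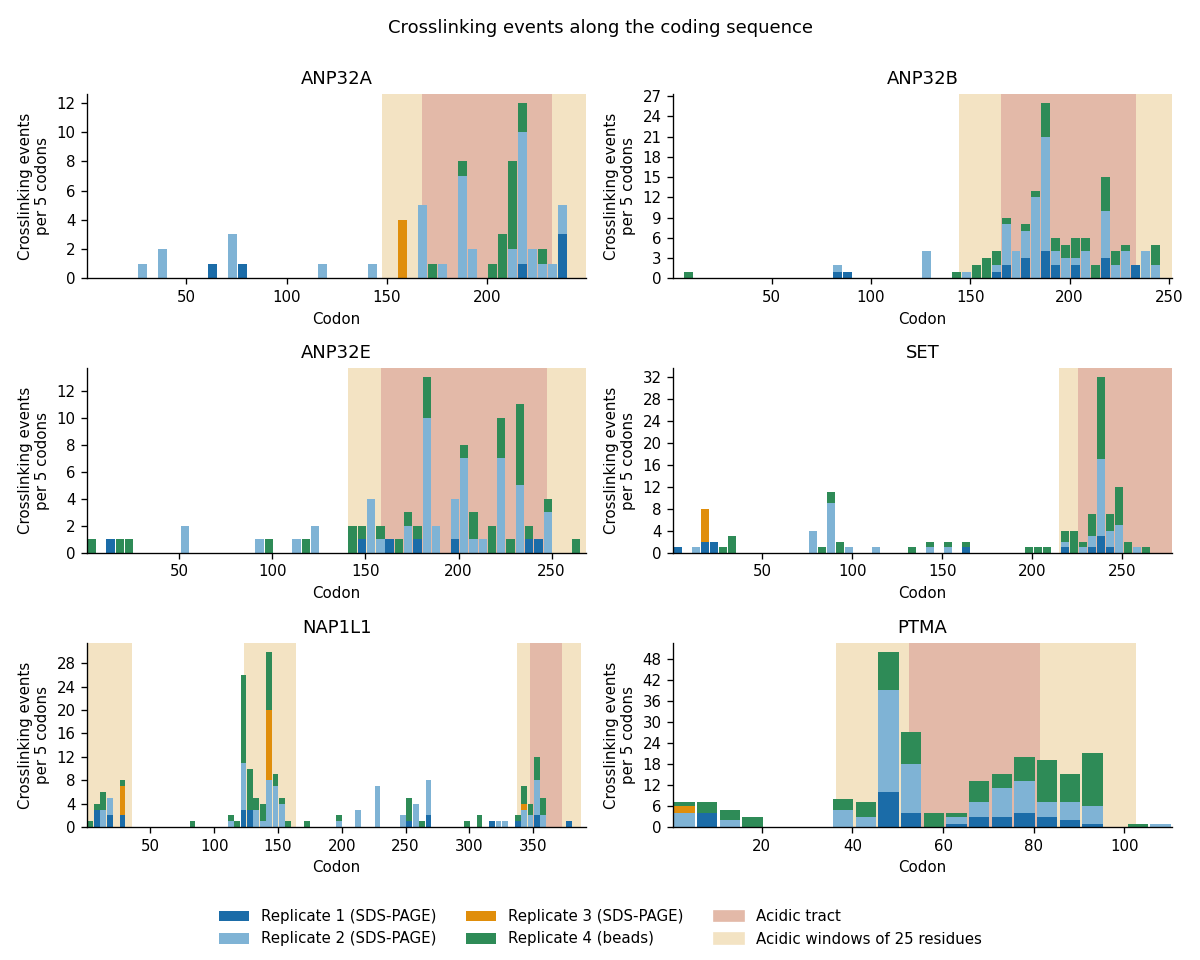
Crosslinking events per 5 codons along the coding sequence of 6 genes, stacked by library, with the acidic tract (dark shading) and the wider acidic windows (light shading). Events gather in the C-terminal acidic part of the ANP32 genes and SET and in the middle segment of NAP1L1, and in PTMA they are as dense just before the tract as inside it.

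Summed over the 9 genes with a tract, 393 of 1045 coding events (37.6%) lay in tracts, where the lengths alone would give 187. The ratio of observed to expected events was 1.84, 2.32, 0 and 2.03 in replicates 1 to 4, a mean of 1.55 ± 1.05 (SD, n = 4). Replicate 3 had 0 of 38 events in tracts, where 3.96 were expected, and a count of 0 there allows a share of up to 7.89% by the limit of 3 counts and up to 9.25% by the exact 95% interval. Both limits treat the events as independent, although in this library they were stacked on few positions. Without replicate 3 the mean was 2.07. In other genes with a tract and enough coding events the ratio was 2.63, 2.90, 1.62 and 2.69 (2.46 ± 0.575, SD, n = 4), above that of the 9 genes in 4 of 4 libraries. However, this ratio has a ceiling that falls as the tract's share of the length rises, and that share reached 33.2% in ANP32E. The ratios therefore do not rank the sets by how dense their tracts were, which the fit below compares. With the wider windows the ratio over the members was 1.73, 1.86, 1.93 and 1.95 (1.86 ± 0.101, SD, n = 4), and replicate 3 then had 22 events where 11.4 were expected. Of these 22, 18 were in NAP1L1, with 12 in codon 142, and 4 were in codon 157 of ANP32A, so the value of replicate 3 rests on few sites.

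**Figure D3:**
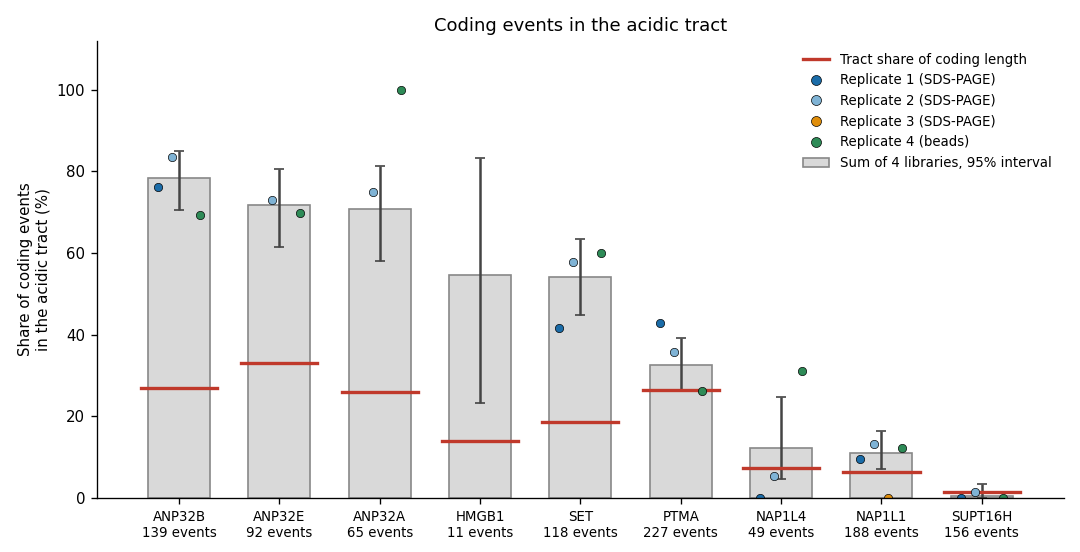
Share of coding events that lie in the acidic tract for the 9 genes with a tract. Bars give the sum of the 4 libraries with exact 95% intervals, points give libraries with at least 10 coding events, and red lines mark the share of the coding length. ANP32B, ANP32E, ANP32A, HMGB1 and SET lie well above their lines, and SUPT16H lies below its line.

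The density of events in the tract was compared with the rest of the same coding sequence in a count model (edgeR's quasi-likelihood test with the library as a block and Benjamini-Hochberg adjustment over 140 genes that have a tract and at least 50 coding events). Of the 10 genes, 7 could be tested. ANP32B was called, at a log2 ratio of 3.10 (SE 0.83, adjusted p = 0.0063), so 1 of 7 passed against 9.29% of all genes tested (13 of 140), and 0% were called lower. At an unadjusted p below 0.05, 22 of the 140 genes were higher and none lower. In simulated counts, however, the fit called only 4% of genes with a true log2 ratio of -1. The lack of lower calls therefore does not show that no tract was less dense than the rest. ANP32E had a log2 ratio of 2.26 (SE 0.89, adjusted p = 0.11), ANP32A 2.05 (SE 1.07, adjusted p = 0.31) and SET 1.77 (SE 0.82, adjusted p = 0.22) in the same edgeR test, none of which passed. In simulated counts this fit called only 14% of genes with a true log2 ratio of 2. A gene of that size that did not pass is therefore not shown to lack a denser tract. The ratio of ANP32A fell to 0.69 without replicate 4, to 1.24 without replicate 2 and to 0.51 with a penalty of 2 for other residues, and it was 2.90 without replicate 3. NAP1L1 was at 0.62, PTMA at 0.42 and SUPT16H at -1.26, with adjusted p from 0.63 to 0.70 by edgeR. HMGB1 and NAP1L4 had too few coding events, and SSRP1 had no tract.

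The median log2 ratio of the 7 genes was 1.77, and 6 of 7 were above 0. Over all 140 genes the median was 0.997 and 74.3% were above 0. In 22 of the 140 genes, none of them a member, the tract held no event. With these set at 3 events over the 4 libraries the median was 1.24 and 90% were above 0. The median of the 7 genes moved with the libraries. Without replicate 4 it was 0.69 against 0.66 over all genes, and without replicate 2 it was 1.24 against 0.29, and without replicate 3 it was 2.30 against 1.10. Of all called genes the ratio was highest in MDN1 (4.01), NRDC (3.31) and ANP32B, on 6, 35 and 109 tract events. MDN1 is a ribosome assembly ATPase and NRDC a metalloprotease.

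These calls depended on the libraries. Without replicate 3, ANP32B, ANP32E and SET were called, 3 of 7 against 12.9% of all genes. Their log2 ratios were then 3.16, 2.30 and 2.39, with edgeR adjusted p of 2.1e-05, 0.020 and 0.0040. ANP32B was not past the threshold without replicate 1 (edgeR adjusted p = 0.17), replicate 2 (0.65) or replicate 4 (0.15), where its log2 ratio was 3.11, 2.72 and 3.34. Only 1, 0 and 0 of the 140 genes were called in those 3 edgeR fits, with 16, 8 and 13 at an unadjusted p below 0.05. DESeq2 called ANP32B and ANP32E, 2 of 7 against 10.7% of genes. Across the 11 alternatives, the adjusted p ran from 2.9e-16 to 0.65 for ANP32B, from 5.0e-05 to 0.89 for ANP32E and from 1.3e-09 to 0.89 for SET.

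With the wider windows in place of the tract, ANP32A (log2 ratio 3.13), ANP32B (4.32), ANP32E (2.72) and NAP1L1 (2.82) were called by edgeR, 4 of 8 against 9.06% of 265 genes. Their adjusted p were 0.0094, 0.0011, 0.048 and 0.0079, and for ANP32A and NAP1L1 they ran up to 0.90 and 0.97 over the 11 alternatives. SET had a log2 ratio of 1.82 and PTMA of 2.06 in that fit (adjusted p = 0.20 and 0.094). SSRP1 was at 0.51 and SUPT16H at -0.61, both short of the threshold.

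**Figure D4:**
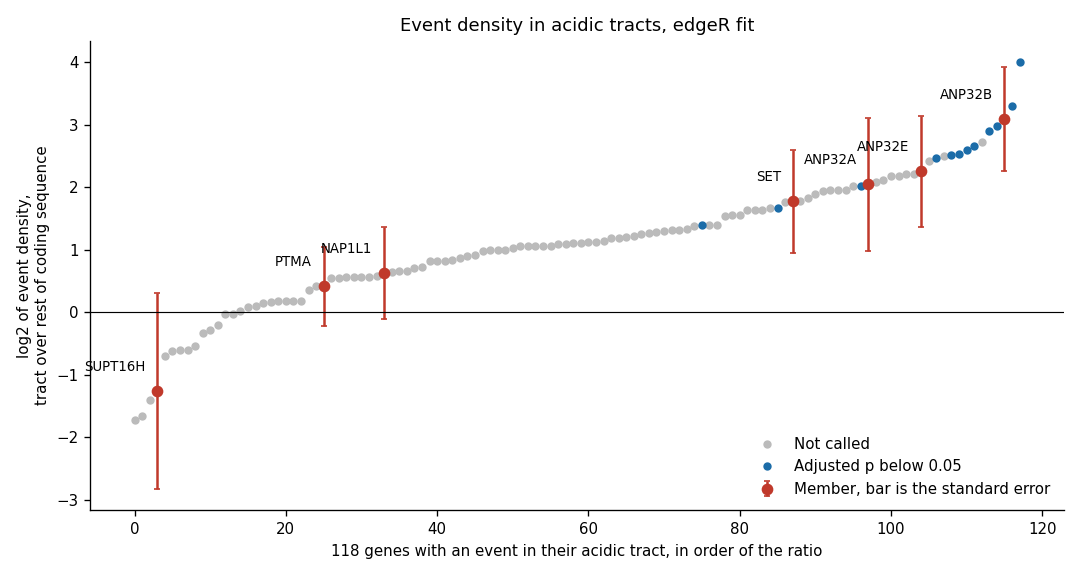
Fitted log2 ratio of event density in the acidic tract over the rest of the coding sequence, for the 118 of 140 genes with at least 1 event in the tract, in rising order. Red points with standard errors are the 7 members, of which ANP32B was called, and blue points are the other called genes.

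The surroundings of the tract differed between genes. In ANP32B the density was 53.4 events per 100 nt inside the tract, 12.2 in the 90 nt before it, 20.4 in the 54 nt after it and 1.98 in the rest. In ANP32A the density was 23.6 inside, 5.56 before, 9.80 after and 2.19 elsewhere, with only 5 events on each side. Of the 5 before, 4 were from replicate 3 at codon 157, and the 5 after were all at codon 238. The values beside the ANP32A tract thus rest on few sites. In SET the density was 41.0 inside, 12.2 before and 7.35 elsewhere, and no coding sequence follows the tail. In SUPT16H and NAP1L4 the sequence beside the tract was denser than the tract, on few events. SUPT16H had 1 event in its tract of 45 nt, or 2.22 per 100 nt. It had 11.1 and 13.3 in the 90 nt before and after the tract, and 4.56 elsewhere. NAP1L4 had 7.14 inside, 12.2 before and 14.3 after, the last from 3 events in 21 nt. Elsewhere NAP1L4 had 3.12, so its tract was still denser than the more distant coding sequence.

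The authors' clusters of significant positions, called on the pooled libraries, were drawn from the same events. The 10 genes held 40 clusters with 1039 events, and 9 of 10 had at least 1, against 11.3% of coding genes. HMGB1 had none. In 31 clusters most events lay in coding sequence, in 6 in the 5′ UTR, in 2 in an intron and in 1 in the 3′ UTR. More than 50% of the events lay in the tract in 9 clusters.

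In ANP32B the cluster chr9:98011267-98011382 held 75 events, 71 of them in the tract, with 13, 44, 0 and 18 in replicates 1 to 4. In SET the cluster chr9:128693903-128693998 held 67 events, 63 in the tail, with 5, 26, 0 and 36 by replicate. Both lack replicate 3. The ANP32E cluster chr1:150226612-150226806 held 52 events, 50 of them in the tract, with 2, 35, 0 and 15.

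PTMA had the largest clusters of the 10 genes. One, at chr2:231711890-231711976, held 111 events, 35 of them in the tract, and the other, at chr2:231712442-231712512, held 91, with 38 in the tract. The largest in NAP1L1, chr12:76059780-76059875, held 71 events (6, 16, 14 and 35 by replicate), and none lay in its tract by the rule. Some clusters came from a single library. The 16 events at chr14:21383928-21383945 in the 5′ UTR of SUPT16H were all from replicate 3, and so were 12 of the 13 in an intron of ANP32A at chr15:68819246-68819253. Of the 40 clusters, 12 had any event from replicate 3 and 5 had events from all 4 libraries.

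An event was called near a motif if a GANGA started in the stretch from 5 nt before it to 30 nt after it. The study found GAAGA enriched in that same stretch around the significant sites of its PR100 data, to which these libraries belong. A ratio above 1 is therefore no independent support for the motif. This was so for 69.2%, 76.9%, 62.7% and 78.6% of the coding events of the 10 genes in replicates 1 to 4. The share of coding positions with such a motif, weighted by the events of each gene, was 52.9%, 51.9%, 40.6% and 54.3%. Events were thus near a motif 1.45 ± 0.0998 times as often as positions (SD, n = 4), above 1 in 4 of 4 libraries, and 1.41 times without replicate 3. The ratio was 1.27 ± 0.082 over the 1044 genes with at least 50 coding events. Inside the tracts the ratio carries no information, since a motif is near 99.4% of positions there and near all 393 events. Outside the tracts it was 1.30, 1.397, 1.74 and 1.41 in replicates 1 to 4 (1.46 ± 0.19, SD, n = 4), and 1.37 ± 0.0588 without replicate 3 (SD, n = 3).

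By gene, the ratio was 2.18 in NAP1L1, 2.02 in HMGB1, 1.98 in ANP32B and 1.85 in ANP32A. It was 1.44 in SSRP1 and 1.22 in SUPT16H, so their events also lay somewhat more often near a motif, with most of them outside the acidic regions. In PTMA it was 1.03, where 91.2% of positions have a motif nearby, and in NAP1L4 it was 0.933, on 49 events.

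The crosslinked base was read from the genome. Inside the tracts, 52.2% of 393 events were at G (exact 95% interval 47.1% to 57.2%), where 43.5% of positions are G. The share at A was 29.5% (25.05% to 34.3%) against 41.0% of positions, and that at T 16.5% (13.003% to 20.6%) against 12.6%. Outside the tracts, the 652 events followed the bases more closely, with 37.4% at A, 24.2% at G and 20.4% at T for 34.4%, 26.1% and 21.4% of positions. UV light crosslinks uridine most readily, and few positions of the tracts are T. With T positions only, the log2 ratio of ANP32B was 4.98 (edgeR adjusted p = 0.025), the only call among the 124 genes that could be fitted, and PTMA turned to -1.69 (SE 1.69).

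The authors kept reads that map to a single place, so copies elsewhere in the genome lower the counts of a gene. To see how much of each coding sequence this could touch, positions were counted whose next 31 nt of transcript occur elsewhere in the genome. The share was 93.3% in HMGB1 and 100% in its tail, 87.3% in PTMA, 79.4% in SET, 46.0% in NAP1L1 and 45.9% in ANP32A. It was 34.3% in ANP32B and 7.35% in its tract, 30.1% in SUPT16H and 68.9% in its short tract, 10.6% in NAP1L4, 0.249% in ANP32E and 0% in SSRP1. Reads longer than 31 nt can still be placed, and 132 of the 227 coding events of PTMA and 72 of the 118 of SET lay at such positions.

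HMGB1 thus had the lowest density and the largest share of repeated sequence, and the part of mapping in its low count was not tested. By name, 90 genes are pseudogenes of the 10, and 89 of them are also annotated as such, 47 for HMGB1. HMGB1P1 is annotated as protein-coding. The 89 held 69 events in all, against 1467 exonic events of the 10 genes. Those of HMGB1 held 24, more than the 20 exonic events of HMGB1 itself. The most were 8 in ANP32AP1, 8 in PTMAP5 and 7 in HMGB1P5. With repeated positions left out of both events and length, the ratio of observed to expected tract events was 1.42, against 1.55 with them.

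A list of 35 other histone chaperone and HMG genes was counted the same way, with 0 to 1614 events and a median of 85. Of these, 6 held at least 200 events, against 3.49% of all protein-coding genes. The nucleolar chaperone nucleolin (NCL) held 1614, and CHAF1A, a subunit of the replication-coupled assembly factor CAF-1, held 457. The remodeller ATRX held 420, nucleophosmin (NPM1) 290, DEK 212 and the H3-H4 chaperone NASP 201. Of the 35 genes, 14 had a tract and 8 could be tested. NCL alone was called (log2 ratio 1.39, SE 0.46, edgeR adjusted p = 0.030), 1 of 8 against 9.29% of all genes tested, and 0 were lower. NPM1 was at 0.19, DEK at 0.18, ATRX at 0.17 and CHAF1A at -0.60. Their SEs were 0.78, 1.01, 1.12 and 1.23 in the same order, so these genes are not shown to lack a denser tract.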

How the data were processed

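The 10 genes and the lists of other genes were chosen with earlier results of these data known. The authors collapsed PCR duplicates by random barcode, mapped reads of 100 nt with STAR to GRCh38 with Gencode 27, allowing 2 mismatches and keeping unique hits, and called clusters with iCount. The version of STAR is not given in the sources used here. The deposited values are counts of unique cDNAs per crosslinked position and per cluster, with no normalization.

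Positions were placed with GENCODE 44 on the strand of the gene, and an event was counted for every gene spanning it. CPM used the total of each library. Named genes were all 10 members, listed chaperones with 200 or more events or called, the 3 pseudogenes with the most events, and the 3 called genes with the highest ratio. Tract and remaining coding counts were fitted with edgeR 4.0.16 (length offsets, threshold 0.05) and, as an alternative, DESeq2 1.42.0, in R 4.3.3. In simulated counts the edgeR fit called 4% of genes with a true log2 ratio of -1, 0% at 1, 14% at 2 and 60% at 3. It called 0.125% of the unchanged genes. The remaining steps ran in Python 3.11.15 with pandas 2.3.3, numpy 2.4.6 and scipy 1.17.1. Among 37 alternatives were other tract definitions, minimums, libraries and counting each position once. No test between conditions was made, and amino acid sequences are not printed.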

Additional observations from a re-analysis of the deposited data

Results flagged for a closer look

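Among 14 values of 4 libraries each, 2 had a library far from the others by Dixon's 95% criterion, which chance alone meets in about 1 in 20 groups. The exonic density of SET was 116 CPM per kb in replicate 4, against 26.6 to 39.0 in replicates 1 to 3. That of NAP1L1 was 36.8 CPM per kb in replicate 4, against 7.73 to 11.9. Replicate 4 was also the highest library for 68.2% of the 1636 coding genes with at least 50 exonic events. All 14 values come from the same 4 libraries, so they are not independent groups. Replicate 4 is the library purified on beads, and the part of the purification was not tested.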

How the results depend on the processing

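The 13 genes called for tract density became 8 with at least 10 coding events and 5 with at least 200. They became 8 with a penalty of 2 for other residues and 24 with the wider windows. With tracts widened by 30 nt on their 5′ side only, 20 were called, and with T positions only 1. With each position counted once 32 were called, with DESeq2 15, and with 1 library left out 0 to 18. PTMA reversed to -1.69 with T positions only, and SUPT16H to 0.26 with widened tracts. The 4 genes with 200 or more events became 9 at a minimum of 100, 0 at 400, 1 with each position counted once and 1 to 3 with 1 library left out. The coding share moved to 29.0% with UTRs first and 80.6% in pooled clusters only, the motif ratio to 1.34 with 15 nt on either side, and the median density to 80.9 CPM per kb on coding sequence alone. The causes were not tested, beyond the fewer genes or events that a stricter minimum or a missing library leaves. For observed over expected tract events, all 20 alternatives stayed within 1 SD of the mean, but that SD is wide because of replicate 3. The alternatives that left out 1 gene were chosen after seeing the data, and ranged from 1.39 without ANP32B to 1.83 without PTMA. The main fit was paired within libraries, with the library as a block, since tract and remaining counts come from the same library. Replicates could not be paired between groups, as there is 1 group. Depth limits HMGB1 and NAP1L4, with 11 and 49 coding events, and replicate 3.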
